A study of Mus musculus with 12 samples.

Results

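The 42 genes described here encode proteins of the cornified envelope of the epidermis, or enzymes that build or process that envelope. They are all measured genes whose symbol begins with Lce or Sprr and a digit, together with Lor, Ivl, Flg2, Hrnr, Rptn, Crnn, Crct1, Tgm1, Tgm3 and Casp14, and they were taken from 19938 measured genes. In all, 39 of the 42 lie on mouse chromosome 3, in the cluster known as the epidermal differentiation complex, and Tgm1, Tgm3 and Casp14 lie elsewhere. The rule also names Flg, the filaggrin gene, which had no probe set listed under its own symbol and is not analysed here. A further 4 probe sets carry the symbols of several Sprr2 or Lce3 genes and were left out.

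The samples were biopsies of whole skin from female Balb/c mice, profiled on Affymetrix Mouse Gene 1.0 arrays. There were 4 groups of 3 arrays, numbered by the labels as biological replicates. One group was untreated, and the others were sampled 1.5 h, 6 h and 24 h after an intradermal injection of RNAdjuvant, an adjuvant in which a cationic peptide carries non-coding RNA. The labels give the dose as 25 mg, and that unit was not verified. The controls received no injection, so the agent and the act of injecting cannot be told apart. Neither the body site nor the clock time of the biopsies was known.

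As keratinocytes leave the basal layer and move towards the surface, they stop dividing and make the proteins of the envelope in sequence. Involucrin (Ivl) and the transglutaminases lay down a scaffold under the cell membrane. Loricrin (Lor), the small proline-rich proteins (Sprr) and the late cornified envelope proteins (Lce) are then cross-linked onto it. The filaggrin-like proteins join a calcium-binding S100 domain to long repeats. Filaggrin itself binds keratin filaments, and caspase 14 takes part in breaking filaggrin down to small moisture-holding molecules. Some members, such as Sprr1b, the Sprr2 genes and the Lce3 genes, are known for being switched on in wounded or inflamed skin and are low in resting skin.

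All values below are log2 intensities. A difference is the mean of the treated arrays minus that of the untreated arrays, or that of the later minus that of the earlier time. A member was called where its adjusted p in limma was under 0.05. Probe sets differ in brightness, so levels are compared between arrays and not between genes. Over the 12 arrays 27 members had a mean of at least 6, above the array medians of 5.53 to 5.755, and 15 had a mean under 6. The dim members were Crnn, Lce1g, Lce3a, Lce3b, Lce3e, Lce3f, Sprr2b, Sprr2e, Sprr2f, Sprr2g, Sprr2h, Sprr2i, Sprr2j-ps (a pseudogene), Sprr2k and Sprr3. The table has no detection calls, so no dim gene can be called absent. Several Lce1 and Sprr2 genes are near-identical paralogs whose probes may share signal, so the division of a change among them is uncertain.

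Every member called in any of the 6 comparisons was called lower in the treated skin, or lower at the later time. At 1.5 h 1 member, Hrnr, was called lower than in untreated skin, where 1.59% of all genes were called lower. At 6 h 5 members were called lower (Casp14, Hrnr, Lce1e, Lce1f and Lce6a), against 2.71% of all genes. At 24 h 3 members were called lower (Hrnr, Lce6a and Lor), against 0.808% of all genes. In limma, 0 members were called higher at any of these times, beside 0.612%, 3.38% and 2.55% of all genes at 1.5 h, 6 h and 24 h. At an unadjusted p under 0.05, 3 members were lower and 1 higher at 1.5 h, beside 9.31% and 8.2% of all genes. At that level 17 were lower and 0 higher at 6 h, beside 14% and 9.16% of all genes, and 21 were lower and 0 higher at 24 h, beside 8.82% and 8.27% of all genes. A moderated F test over the 3 times called 10 members (Casp14, Hrnr, Lce1e, Lce1f, Lce1k, Lce6a, Lor, Sprr1a, Sprr4 and Tgm3), against 11.4% of all genes.

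The members' median difference from untreated skin was -0.00 at 1.5 h, -0.28 at 6 h and -0.39 at 24 h, beside medians of 0.02, -0.04 and 0.00 over all genes. A difference below 0 was found for 21 of 42 members at 1.5 h (45.6% of all genes), for 32 of 42 at 6 h (56.2% of all genes) and for 38 of 42 at 24 h (49.9% of all genes). The treated arrays lay wholly below the untreated ones for 5 members at 1.5 h, where 13.3% of all genes did so, for 17 members at 6 h, where 19.3% did, and for 20 members at 24 h, where 12.4% did. These are differences in the RNA of whole skin, in which fewer cells of a type and less RNA per cell cannot be told apart.

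**Figure D1:**
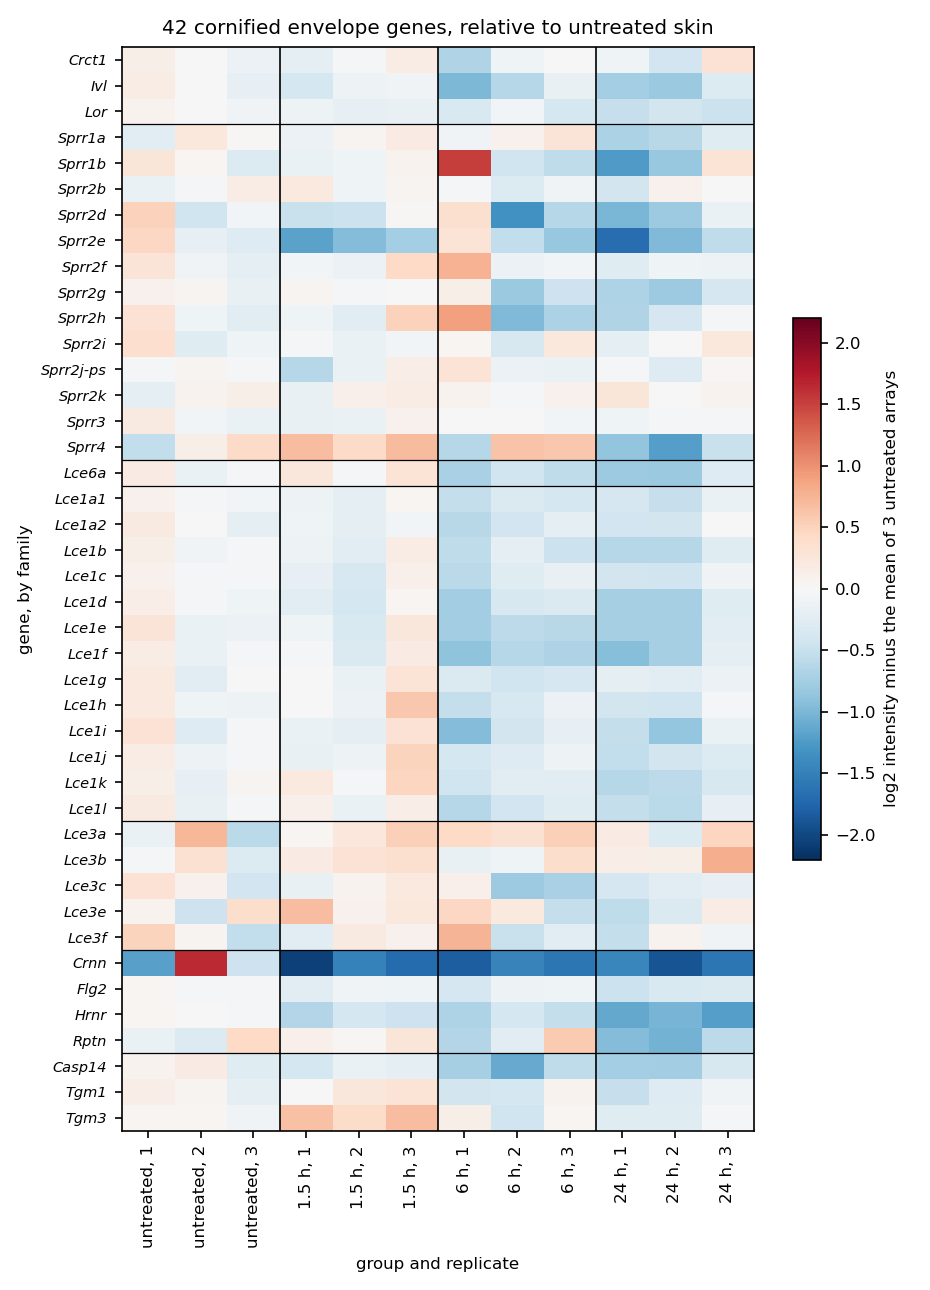
Log2 intensity of the 42 genes in each of the 12 arrays, minus the mean of the 3 untreated arrays, with genes in rows by family and arrays in columns by group (untreated, 1.5 h, 6 h and 24 h). Blue is below and red above the untreated mean: the Lce1 and Lce6a rows are blue in nearly all 6 h and 24 h arrays, and Crnn is high in 1 untreated array (7.68) and low in all 9 treated arrays.

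**Figure D2:**
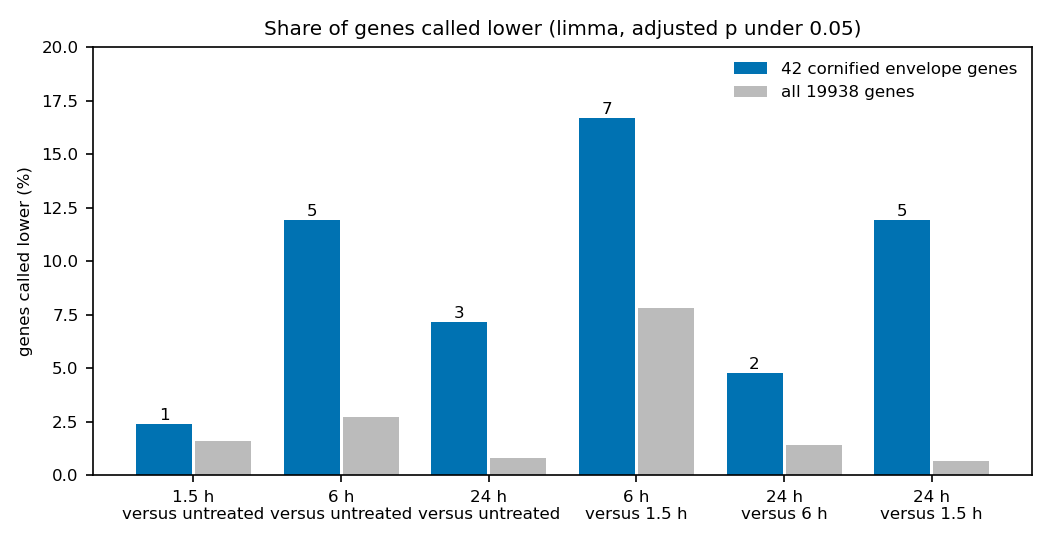
Share of genes called lower (percent, limma adjusted p under 0.05) in each of the 6 comparisons, for the 42 cornified envelope genes (blue, with the number called above the bar) and for all 19938 genes (grey). The members' shares rest on 1 to 7 genes each.

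Hrnr, the gene of hornerin, a filaggrin-like protein of the granular and cornified layers, had the largest called fall from untreated skin at 24 h and was the one member called at all 3 times. It measured 11.11, 11.05 and 11.03 in untreated skin, 10.41, 10.68 and 10.61 at 1.5 h, 10.38, 10.67 and 10.55 at 6 h, and 9.94, 10.05 and 9.86 at 24 h. Untreated arrays lay above all treated arrays, and the 24 h arrays lay below all others. The log2 difference from untreated skin was -0.50 at 1.5 h (SE 0.110, adjusted p = 0.0357), -0.53 at 6 h (SE 0.110, adjusted p = 0.0107) and -1.11 at 24 h (95% interval -1.35 to -0.88, adjusted p = 2.51e-05). At 24 h its intensity was 53.8% lower than in untreated skin. The 6 h and 24 h calls were kept without any 1 of the 12 libraries, with adjusted p up to 0.0484 and 0.000278. The 6 h call was lost under cyclic loess (adjusted p = 0.0509) and with arrays centred on basal epidermal markers (adjusted p = 0.0672). Removing any of the 6 libraries compared, or 24 h replicate 1, ended the 1.5 h call, with an adjusted p of at most 0.127 (1.5 h replicate 1 removed).

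The other filaggrin-like genes did not pass the test. With Hrnr, 3 of the 4 such genes had a difference below 0 at 1.5 h and 4 of 4 at 6 h and at 24 h. Over all genes 45.6%, 56.2% and 49.9% did at the 3 times. The median of the 4 genes at 24 h was -0.99. Flg2, the gene of filaggrin-2, measured 11.36, 11.50 and 11.51 at 24 h, against 11.87, 11.80 and 11.80 in untreated skin. Its treated arrays lay below the untreated ones at all 3 times, and the 24 h difference was -0.37 (adjusted p = 0.0755). Rptn, the gene of repetin, measured 5.59, 5.502 and 5.98 at 24 h, against 6.41, 6.25 and 6.99 in untreated skin, a difference of -0.86 without overlap (adjusted p = 0.102). Crnn, the gene of cornulin, known mainly from the upper layers of the oesophagus and other squamous epithelia, had the largest difference of any member at each time, -1.74 at 1.5 h, -1.62 at 6 h and -1.65 at 24 h (adjusted p = 0.0884, 0.0707 and 0.0956). It lay between 3.99 and 4.60 in the 9 treated arrays, against 4.85, 7.68 and 5.59 in untreated skin. The treated arrays were all low, and untreated replicate 2 alone was far above the rest. That array also had the highest summed level of 12 hair follicle genes, which was 9.13 to 9.72 in the treated arrays, against 12.59 in untreated replicate 2 and 9.755 to 10.12 in the other untreated arrays. Without untreated replicate 2 the Crnn differences were -0.92 at 1.5 h, -0.80 at 6 h and -0.83 at 24 h (adjusted p = 0.101, 0.065 and 0.0968), and Crnn was then no longer the member with the largest difference at any of the times. The part of hair follicle content in the Crnn difference was not tested.

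Lor, the gene of loricrin, the main protein of the mature envelope, was called lower at 24 h. It measured 12.08, 11.98 and 11.92 in untreated skin, 11.88, 11.82 and 11.83 at 1.5 h, 11.65, 11.94 and 11.60 at 6 h, and 11.49, 11.58 and 11.52 at 24 h. Its 24 h arrays lay below all other arrays, and the 6 h arrays overlapped the untreated ones. The differences were -0.15 at 1.5 h (adjusted p = 0.489), -0.26 at 6 h (adjusted p = 0.159) and -0.46 at 24 h (SE 0.105, adjusted p = 0.0277), the last a level 27.3% lower than in untreated skin. Removing any of the 6 libraries compared ended the 24 h call, with an adjusted p of at most 0.1002 (untreated replicate 1 removed). With arrays centred on basal epidermal markers the difference was -0.19 (adjusted p = 0.333).

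Ivl, the gene of involucrin, an early scaffold protein, did not pass the test at any time. It measured 9.95, 9.80 and 9.62 in untreated skin, 9.40, 9.68 and 9.71 at 1.5 h, 8.80, 9.16 and 9.62 at 6 h, and 9.05, 8.97 and 9.49 at 24 h. Its 24 h arrays lay below the untreated ones and the other times overlapped them. Its differences were -0.20 at 1.5 h (adjusted p = 0.643), -0.59 at 6 h (adjusted p = 0.0874) and -0.62 at 24 h (adjusted p = 0.109). Crct1, a cysteine-rich gene of the complex, differed by -0.03, -0.25 and -0.07 at the 3 times, with overlapping arrays at each.

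The Lce1 genes, whose products join the envelope late in cornification, had differences of one sign at 6 h and at 24 h. At 6 h all 13 had a difference below 0, beside 56.2% of all genes, with a median of -0.41. Their range was from -0.73 (Lce1f) to -0.26 (Lce1j). The 6 h arrays of 12 lay wholly below the untreated ones, beside 19.3% of all genes. At 24 h all 13 were again below 0, beside 49.9% of all genes, with a median of -0.43. Their range was from -0.63 (Lce1f) to -0.19 (Lce1g), and 9 had arrays wholly below the untreated ones, beside 12.4% of all genes. At 1.5 h 8 of 13 were below 0, beside 45.6% of all genes, with a median of -0.06. With arrays centred on their medians 3 of 13 were, with a median of 0.04, so no direction is given for that time. All Lce1 genes tested lay below 0 at 6 h in each of 29 alternative settings, and at 24 h in 28 of 29. The exception was centring on basal epidermal markers, where 12 of 13 lay below 0 with a median of -0.16 while the median of all genes moved to 0.27.

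Of the 13 Lce1 genes, Lce1e and Lce1f were called lower at 6 h and 11 did not pass. Over all genes 2.71% were called lower at 6 h. Lce1f measured 7.87, 8.14 and 8.08 at 6 h, against 8.93, 8.62 and 8.74 in untreated skin, a difference of -0.73 (SE 0.177, adjusted p = 0.0274). Lce1e measured 8.77, 8.95 and 8.92 at 6 h, against 9.81, 9.38 and 9.40 in untreated skin, a difference of -0.65 (SE 0.174, adjusted p = 0.0426). Neither pair of groups overlapped. At 24 h Lce1f measured 7.83, 8.03 and 8.55 and Lce1e 8.81, 8.81 and 9.30, and neither passed (adjusted p = 0.0787 and 0.109). In both genes 24 h replicate 3 was the highest array of its group, as it was for the other Lce1 genes called in any comparison. The 6 h call of Lce1f ended with untreated replicate 1 or 3 or any 6 h library removed (adjusted p at most 0.111, for untreated replicate 1). That of Lce1e ended with any of the 6 libraries compared, or 1.5 h replicate 1, removed (adjusted p at most 0.166, for untreated replicate 1).

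The remaining Lce1 genes are Lce1a1, Lce1a2, Lce1b, Lce1c, Lce1d, Lce1g, Lce1h, Lce1i, Lce1j, Lce1k and Lce1l. Just outside the threshold at 6 h stood Lce1a1 (adjusted p = 0.0562), with Lce6a just inside it (adjusted p = 0.0437). Just outside it at 24 h stood Lce1k (adjusted p = 0.0616), again with Lce6a just inside (adjusted p = 0.0383). Across the 12 arrays the pairwise correlation of the 13 Lce1 genes had a median of 0.87 over 78 pairs (0.63 to 0.98), and of 0.83 after each group's mean was taken off. These genes share arrays and RNA, and their probes may share signal, so the correlation describes the arrays and is no measure of shared control. The Sprr genes had a median of 0.32 over 78 pairs and the Lce3 genes 0.14 over 10 pairs.

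Lce6a, a late cornified envelope gene that lies between Ivl and the Lce1 genes, was called lower at both 6 h and 24 h. It measured 9.08, 8.75 and 8.87 in untreated skin, 9.15, 8.88 and 9.20 at 1.5 h, 8.19, 8.46 and 8.33 at 6 h, and 8.10, 8.09 and 8.61 at 24 h. Neither the 6 h nor the 24 h arrays overlapped the untreated ones, while the 1.5 h arrays did. The differences were 0.18 at 1.5 h (adjusted p = 0.588), -0.57 at 6 h (SE 0.153, adjusted p = 0.0437) and -0.63 at 24 h (SE 0.153, adjusted p = 0.0383). The 6 h call ended with any of the 6 libraries compared, or 1.5 h replicate 1 or 3, removed (adjusted p at most 0.162, for untreated replicate 1). The 24 h call ended with any untreated library, 6 h replicate 3, or 24 h replicate 1 or 2 removed (adjusted p at most 0.135, for untreated replicate 1).

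**Figure D3:**
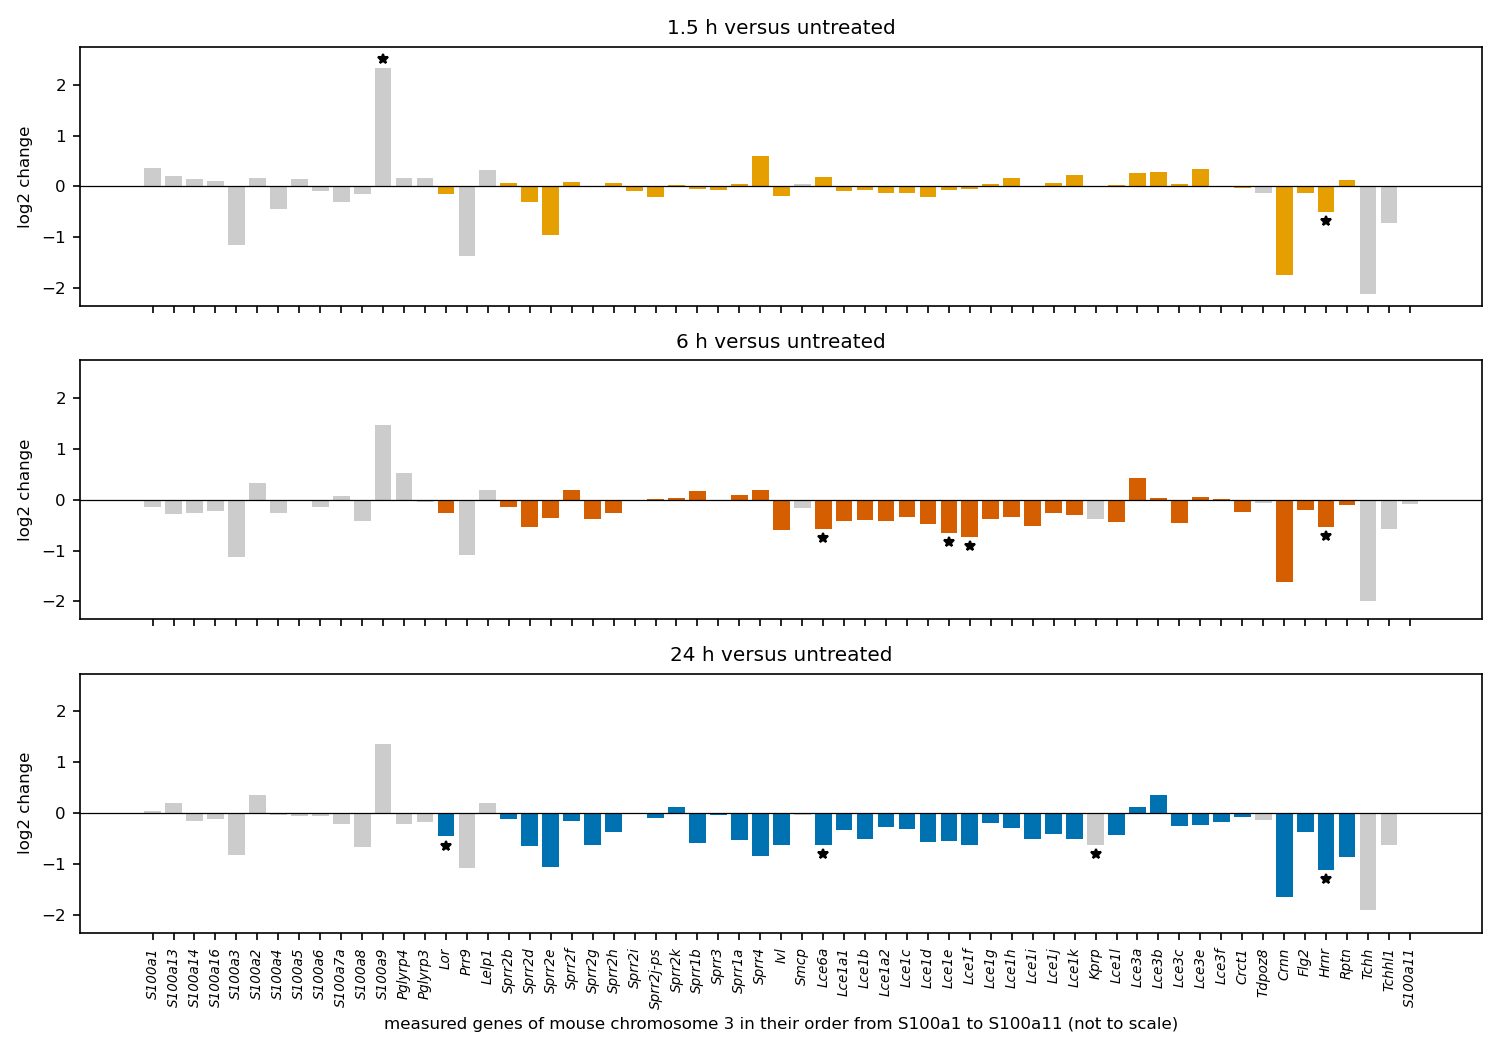
Log2 difference from untreated skin at 1.5 h, 6 h and 24 h (panels from top to bottom) for the measured genes of mouse chromosome 3 in their order from S100a1 to S100a11, with cornified envelope genes in colour and other genes in grey. A star marks a call (limma adjusted p under 0.05): the run of Lce1 bars lies near 0 at 1.5 h and below 0 at 6 h and 24 h, and Lce6a, Lce1e, Lce1f and Hrnr are starred at 6 h.

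The 5 Lce3 genes, which are low in resting skin and known to be induced when the barrier is broken, gave no call at any time. At an unadjusted p under 0.05, 0 of their 15 differences from untreated skin passed. Over all genes 9.31%, 14% and 8.82% were lower and 8.2%, 9.16% and 8.27% higher at that level at 1.5 h, 6 h and 24 h. Lce3c, the one of them with a mean of at least 6, measured 7.08, 6.18 and 6.27 at 6 h, against 7.30, 7.07 and 6.56 in untreated skin, and differed by 0.05 at 1.5 h, -0.47 at 6 h and -0.26 at 24 h. The 6 h arrays overlapped the untreated ones. Without 6 h replicate 1, the highest of them, the 6 h difference of Lce3c was -0.75 and was called (adjusted p = 0.0332). Lce3a, Lce3b, Lce3e and Lce3f had group means of 3.18 to 4.504. The family's median was 0.27 at 1.5 h, 0.04 at 6 h and -0.17 at 24 h, and its sign was not stable. It was -0.03 at 1.5 h without untreated replicate 3, -0.04 at 6 h after quantile normalization and 0.10 at 24 h with arrays centred on basal epidermal markers, so no direction is given.

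Of the 13 small proline-rich genes, 0 were called against untreated skin at any time. Over all genes 1.59%, 2.71% and 0.808% were called lower at 1.5 h, 6 h and 24 h. At an unadjusted p under 0.05, 1 Sprr gene was lower at 1.5 h (Sprr2e), 0 at 6 h and 4 at 24 h (Sprr1a, Sprr2e, Sprr2g and Sprr4). At that level 9.31%, 14% and 8.82% of all genes were lower. The Sprr median was 0.01 at 1.5 h and -0.02 at 6 h, signs that turned under other settings. It was -0.37 at 24 h, when 11 of 13 lay below 0, beside 49.9% of all genes. Over 29 alternative settings the 24 h median ran from -0.59 (only genes of at least 6 in 3 arrays) to 0.0 (values under 5 raised to 5). It thus depended on how dim values were handled. Sprr1a, the member of the family known for injury responses in skin and nerve, measured 11.51, 11.995 and 11.80 in untreated skin, 11.65, 11.84 and 11.95 at 1.5 h, 11.70, 11.86 and 12.06 at 6 h, and 11.08, 11.16 and 11.505 at 24 h. Its 24 h arrays lay just below the untreated ones and the others overlapped them, with a 24 h difference of -0.52 (adjusted p = 0.0884). Sprr4, a gene next to Ivl, measured 9.29, 9.96 and 10.25 in untreated skin, 10.52, 10.25 and 10.54 at 1.5 h, 9.20, 10.47 and 10.42 at 6 h, and 8.97, 8.63 and 9.35 at 24 h. Its untreated and 6 h arrays spread widely, each treated group overlapped the untreated one, and its differences were 0.60, 0.20 and -0.85 (adjusted p = 0.346, 0.732 and 0.182).

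Sprr1b measured 9.62, 7.65 and 7.54 at 6 h, against 8.36, 8.13 and 7.79 in untreated skin, so that 1 of the 3 arrays at 6 h was high. That array, 6 h replicate 1, was also the highest of its group for Sprr2d (6.76), Sprr2e (5.33), Sprr2f (4.80), Sprr2g (4.37) and Sprr2h (6.72), and it is 1 of the 2 libraries high in the lymph node gene Glycam1. Without it, Sprr1b differed by -0.50 at 6 h (adjusted p = 0.382), against 0.17 with it. In that fit Sprr2g (-0.63, adjusted p = 0.0289) and Lce3c (-0.75, adjusted p = 0.0332) were also called lower at 6 h. Sprr2g (-0.62, adjusted p = 0.0223) and Sprr2e (-1.07, adjusted p = 0.0371) were called lower at 24 h, and Tgm3 was called higher at 1.5 h. The shares of all genes called in that fit were not computed. Sprr2e had the largest difference in the family at 24 h, -1.07 (adjusted p = 0.0843), with 3.35, 4.05 and 4.46 against 5.49, 4.83 and 4.75 in untreated skin. Sprr2g differed by -0.62 at 24 h, and Sprr2d by -0.53 at 6 h. Sprr2b, Sprr2i, Sprr2j-ps, Sprr2k and Sprr3 had means between 3.13 and 3.80 in every group.

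Casp14, the gene of caspase 14, a protease of the cornifying layers that acts on filaggrin, was called lower at 6 h. It measured 8.11, 8.22 and 7.76 in untreated skin, 7.64, 7.88 and 7.83 at 1.5 h, 7.30, 6.92 and 7.47 at 6 h, and 7.28, 7.27 and 7.68 at 24 h. Its 6 h and 24 h arrays lay below the untreated ones, and the 1.5 h arrays overlapped them. The differences were -0.25 at 1.5 h (adjusted p = 0.469), -0.80 at 6 h (SE 0.166, adjusted p = 0.0113) and -0.62 at 24 h (adjusted p = 0.0644). The 6 h level was 42.6% lower than in untreated skin, and removing untreated replicate 2 or 6 h replicate 2 ended the call (adjusted p at most 0.0558).

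Tgm3, the gene of the epidermal transglutaminase that joins Lor and Sprr proteins, stood just outside the threshold at 1.5 h, on the higher side. It measured 7.47, 7.46 and 7.34 in untreated skin, 8.06, 7.84 and 8.10 at 1.5 h, 7.55, 6.98 and 7.47 at 6 h, and 7.16, 7.17 and 7.39 at 24 h. Its 1.5 h arrays lay above all other arrays, by 0.58 over untreated skin (SE 0.144, adjusted p = 0.0575). Without 6 h replicate 1 this difference was called (adjusted p = 0.0483), and without untreated replicate 2 it was not (0.60, adjusted p = 0.149). The differences at 6 h and 24 h were -0.09 and -0.19, with overlap. Tgm1, the membrane-bound transglutaminase that starts the envelope, measured 8.27, 8.19 and 7.93 in untreated skin, 8.13, 8.38 and 8.43 at 1.5 h, 7.73, 7.74 and 8.21 at 6 h, and 7.63, 7.84 and 8.04 at 24 h. Its arrays overlapped the untreated ones at every time, with differences of 0.19, -0.23 and -0.29 (adjusted p = 0.57, 0.385 and 0.372).

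**Figure D4:**
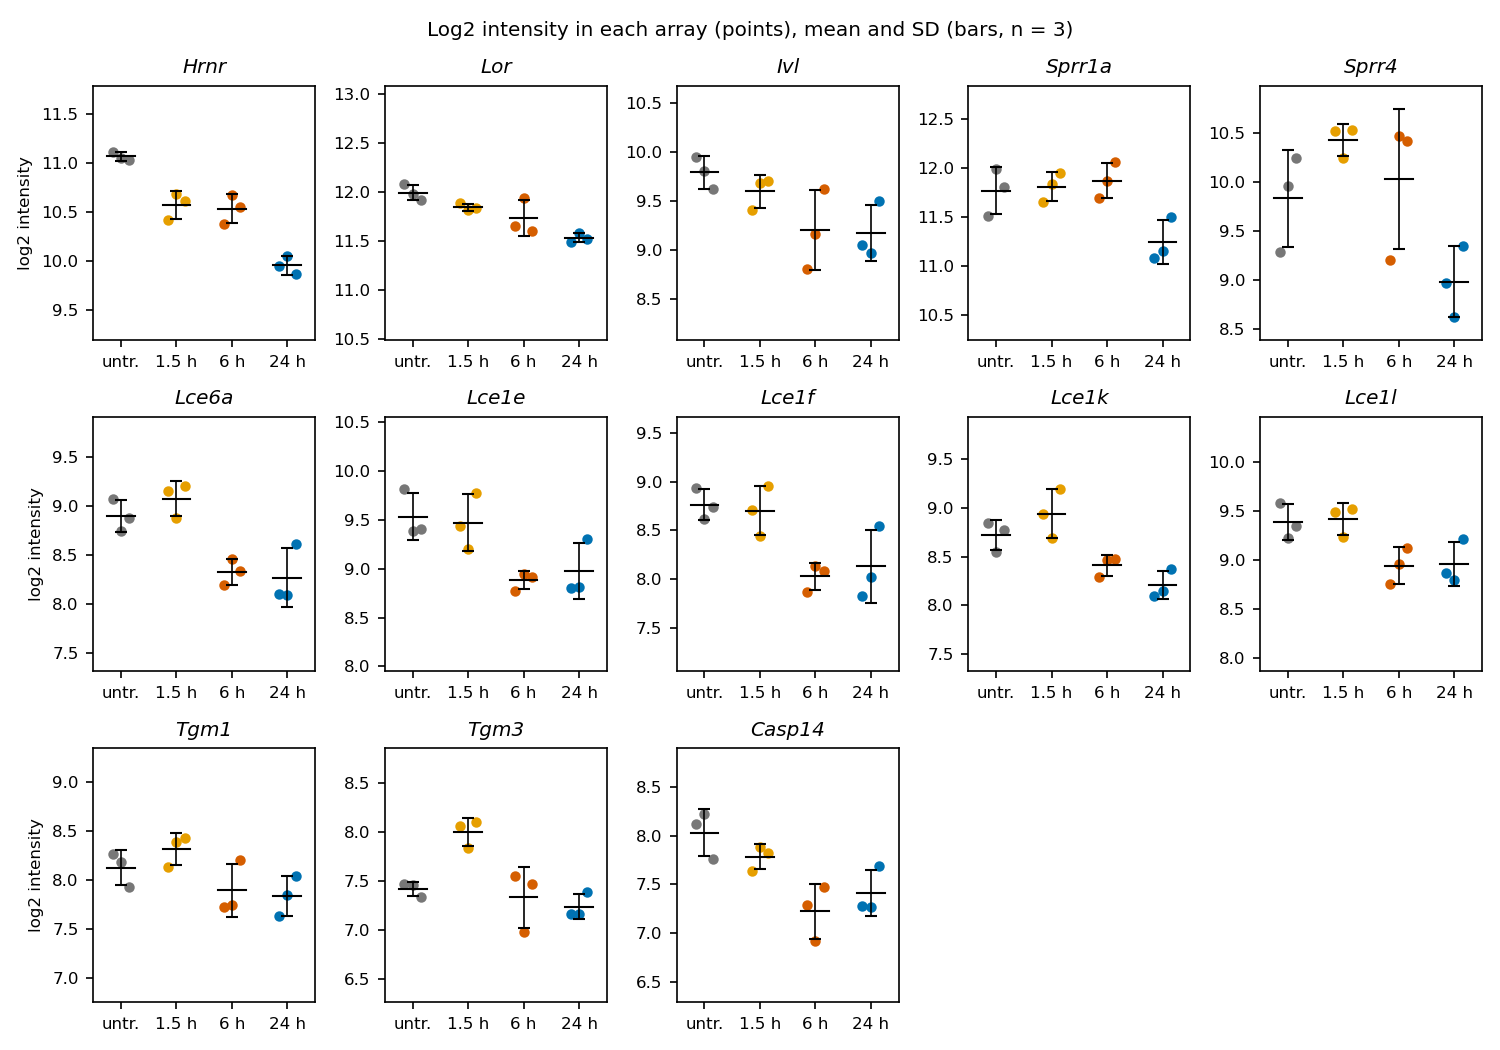
Log2 intensity of 13 genes in each array (points) with the mean and SD of 3 arrays (bars), for untreated skin and 1.5 h, 6 h and 24 h after RNAdjuvant; each panel has its own axis range. Hrnr and Lor are lowest at 24 h, Casp14 and the Lce genes are low at both 6 h and 24 h, and Tgm3 is highest at 1.5 h.

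The later times were also compared with each other. Between 6 h and 1.5 h, 7 members were called lower at 6 h (Casp14, Lce1e, Lce1f, Lce1k, Lce1l, Lce6a and Tgm3), against 7.8% of all genes, and 0 higher, against 5.47%. At an unadjusted p under 0.05 these were 14 lower and 0 higher, beside 18.5% and 11.4% of all genes. Lce6a had the largest of these differences, -0.75 (SE 0.153, adjusted p = 0.00832), followed by Lce1f with -0.67 (adjusted p = 0.0272) and Tgm3 with -0.67 (adjusted p = 0.0111). Lce1k measured 8.29, 8.47 and 8.48 at 6 h, against 8.94, 8.69 and 9.19 at 1.5 h, a difference of -0.53 (adjusted p = 0.0256). Lce1l measured 8.75, 8.96 and 9.12 at 6 h, against 9.50, 9.23 and 9.53 at 1.5 h, a difference of -0.47 (adjusted p = 0.0476). The groups did not overlap in any of the 7 genes. Without overlap, 11 members in all were lower at 6 h, where 19.8% of all genes were, and 32 of 42 had a difference below 0, where 55.1% of all genes did. All 13 Lce1 genes had a difference below 0, with a median of -0.42. The calls of Lce6a and Tgm3 were kept without any 1 library (adjusted p up to 0.0291 and 0.0414). Both were lost with arrays centred on basal epidermal markers (adjusted p = 0.0539 and 0.0696), that of Lce6a also without the 2 libraries high in Glycam1 (adjusted p = 0.0664), and that of Tgm3 also without the 4 libraries high in the muscle gene Myl2, which left 1 array at 1.5 h (adjusted p = 0.12). The call of Lce1k ended when 1.5 h replicate 1 or 3 or 6 h replicate 1 or 2 was removed (adjusted p at most 0.0800), and that of Lce1f when 1.5 h replicate 1 or 3 or any 6 h library was (adjusted p at most 0.0831). For Lce1e those libraries and untreated replicate 3 ended it (adjusted p at most 0.131). For Casp14 untreated replicate 1, every 1.5 h library, 6 h replicates 1 and 2 and 24 h replicate 1 each did (adjusted p at most 0.182). For Lce1l untreated replicates 2 and 3, every 1.5 h library, 6 h replicates 1 and 2 and 24 h replicate 1 each did (adjusted p at most 0.1355).

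Between 24 h and 6 h, 2 members were called lower at 24 h, Hrnr and Sprr1a, against 1.41% of all genes, and 0 higher, against 2.03%. At an unadjusted p under 0.05, 5 were lower and 0 higher, beside 7.3% and 13.3% of all genes, and 26 of 42 had a difference below 0, where 47.1% of all genes did. Hrnr differed by -0.58 (adjusted p = 0.014) and Sprr1a by -0.63 (adjusted p = 0.0431), and neither overlapped, where 9.29% of all genes and 3 members were lower without overlap. The Lce1 genes had a median difference of 0.04 in this comparison, with 9 of 13 above 0 and 0 called, and 0 of them passed an unadjusted p under 0.05. Removing 6 h replicate 2 or 24 h replicate 3 ended the call of Hrnr (adjusted p at most 0.0801). Removing untreated replicate 3, 1.5 h replicate 2 or 3, 6 h replicate 2 or 3, or 24 h replicate 1 or 2 ended that of Sprr1a (adjusted p at most 0.1485).

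Between 24 h and 1.5 h, 5 members were called lower at 24 h (Hrnr, Lce1k, Lce6a, Sprr4 and Tgm3), against 0.667% of all genes, and 0 higher, against 2.24%. At an unadjusted p under 0.05, 20 were lower and 0 higher, beside 7.96% and 7.66% of all genes. A difference below 0 was found for 36 of 42 members, where 52.2% of all genes had one, and 15 members were lower without overlap, where 9.12% of all genes were. Sprr4 had the largest of these differences, -1.45 (SE 0.314, adjusted p = 0.0221), and lay at a level 63.4% lower at 24 h than at 1.5 h. Lce6a differed by -0.81, Tgm3 by -0.76, Lce1k by -0.73 and Hrnr by -0.62 (adjusted p = 0.00939, 0.00939, 0.00886 and 0.00594). Lce1k measured 8.10, 8.15 and 8.37 at 24 h, below all 3 arrays of 1.5 h, and the other called genes did not overlap either. The calls of Hrnr and Lce1k were kept without any 1 library (adjusted p up to 0.0403 and 0.0461). Removing 24 h replicate 2 ended those of Lce6a (adjusted p = 0.0566) and Tgm3 (adjusted p = 0.0504). Removing any 1.5 h library, 24 h replicate 1 or 24 h replicate 2 ended that of Sprr4 (adjusted p at most 0.117). Without the same 4 libraries high in Myl2 (1.5 h replicates 1 and 2 and 24 h replicates 1 and 3), 1 array was left at 1.5 h and 1 at 24 h, each assumed to vary like the other groups. No call was made there (0 members), and the differences of the 5 genes ran from -1.91 to -0.56. With arrays centred on basal epidermal markers 1 of the 5 was called, Sprr4, and the other 4 had adjusted p from 0.0743 to 0.0885.

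The promoters of 5 members are shown because the families differ in the short motifs next to their starts. They are those of the called member with the largest difference in each of 4 families (Hrnr, Lor, Lce6a and Sprr4), and that of Sprr1a, added after its values were seen because it carries AP-1 motifs. Each is 300 bases of RefSeq sequence on build GRCm38.p6, from 250 bases before the annotated start to 50 after it, written in the direction of transcription. They lie at chr3:93319499-93319798 (plus strand, Hrnr), chr3:92083093-92083392 (minus strand, Lor), chr3:92621611-92621910 (minus strand, Lce6a), chr3:92485832-92486131 (minus strand, Sprr1a) and chr3:92500444-92500743 (minus strand, Sprr4). Capitals mark matches to the motifs searched on both strands: the TATA box TATAAA, the AP-1 motif TGANTCA, the C/EBP motif TTNNGCAA and the Nrf2 motif TGACNNNGC, which overlaps 1 of the 2 AP-1 matches of Sprr1a.
Hrnr: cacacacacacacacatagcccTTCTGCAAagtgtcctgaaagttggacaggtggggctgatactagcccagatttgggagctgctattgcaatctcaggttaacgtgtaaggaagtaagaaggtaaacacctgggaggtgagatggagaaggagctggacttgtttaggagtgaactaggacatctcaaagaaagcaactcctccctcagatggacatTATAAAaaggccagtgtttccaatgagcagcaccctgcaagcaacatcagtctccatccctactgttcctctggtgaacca
Lor: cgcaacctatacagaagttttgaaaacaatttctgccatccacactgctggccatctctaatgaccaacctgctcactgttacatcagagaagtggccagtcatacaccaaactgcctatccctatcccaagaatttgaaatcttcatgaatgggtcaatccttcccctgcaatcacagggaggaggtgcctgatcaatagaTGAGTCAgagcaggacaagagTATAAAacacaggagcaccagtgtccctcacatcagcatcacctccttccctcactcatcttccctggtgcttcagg
Lce6a: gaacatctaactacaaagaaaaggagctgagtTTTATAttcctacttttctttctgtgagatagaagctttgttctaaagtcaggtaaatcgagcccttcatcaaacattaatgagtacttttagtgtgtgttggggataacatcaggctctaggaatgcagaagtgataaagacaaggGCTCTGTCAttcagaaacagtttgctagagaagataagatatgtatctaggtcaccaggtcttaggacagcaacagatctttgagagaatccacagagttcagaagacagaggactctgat
Sprr1a: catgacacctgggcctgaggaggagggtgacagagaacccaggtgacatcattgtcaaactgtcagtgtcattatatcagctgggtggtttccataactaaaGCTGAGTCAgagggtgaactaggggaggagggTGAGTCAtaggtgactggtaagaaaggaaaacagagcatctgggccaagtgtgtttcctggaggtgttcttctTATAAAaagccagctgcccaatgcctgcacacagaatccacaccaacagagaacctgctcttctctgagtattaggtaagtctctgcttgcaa
Sprr4: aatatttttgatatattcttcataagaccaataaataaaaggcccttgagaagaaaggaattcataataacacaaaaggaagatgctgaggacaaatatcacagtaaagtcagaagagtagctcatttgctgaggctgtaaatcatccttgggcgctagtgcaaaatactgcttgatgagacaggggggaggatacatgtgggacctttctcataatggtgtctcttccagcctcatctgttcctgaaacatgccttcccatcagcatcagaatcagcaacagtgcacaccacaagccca
Of the 42 members, 38 had a promoter in the RefSeq table, and Crct1, Lce1f, Sprr2g and Sprr2j-ps are named only. The AP-1 motif, which binds Fos and Jun proteins, was found in 9 of 11 Sprr promoters (81.8%), in 0 of the 13 promoters of Lce1 genes and Lce6a and in 0 of 5 Lce3 promoters, beside 7.81% of all 32851 promoters in the table. It was also found in Lor, Ivl, Crnn, Flg2 and Rptn, which makes 14 of 38. TATAAA was found in 10 of 11 Sprr promoters, in 2 of the 13 of Lce1 genes and Lce6a, and in 13.6% of all promoters. In Lor the AP-1 match begins at position -48 and TATAAA at -27, counted from the annotated start. The Sprr4 promoter held none of the motifs searched.

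Motifs of factors active in antiviral and inflammatory responses were also searched on both strands. The interferon-stimulated response element was found in 1 of 38 promoters (that of Tgm1), beside 3.44% of all promoters. The gamma-interferon activated site TTCNNNGAA was found in 3 of 38, beside 8.3%, and the NF-kB motif in 0 of 38, beside 1.63%. The AP-2 motif GCCNNNGGC was found in 1 of 38 (16.6% of all promoters), the grainyhead-like motif AACNGGTT in 1 of 38 (2.09%), the C/EBP motif in 6 of 38 (10.8%) and the Nrf2 motif in 8 of 38 (12.4%). A match describes the letters in the window and shows no binding. Compared base by base at the same distance from the start, without gaps, the 12 Lce1 promoters had a median of 33.0% identical bases. This was over 66 pairs (22.7% to 86.0%), and Lce6a with them had a median of 25.35% over 12 pairs. An inserted or lost base lowers this share, so it does not measure how alike aligned promoters would be.

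Among genes that act beside the envelope proteins, Tgm5, Klk8, Kprp, Krt1, Elovl4 and Alox12b were called lower at 1 or more times. Over all genes, 1.59%, 2.71% and 0.808% were called lower at 1.5 h, 6 h and 24 h, and 0.612%, 3.38% and 2.55% higher. Of 32 measured suprabasal keratin, desmosome and other cornification genes, 1 was called lower at 1.5 h, 2 at 6 h and 2 at 24 h, and 0 higher, with medians of 0.02, -0.19 and -0.31. Tgm5, a further epidermal transglutaminase, differed by -0.48 at 1.5 h (adjusted p = 0.025) and -0.56 at 6 h (adjusted p = 0.0028), and Klk8, a serine protease of the outer epidermis, by -0.68 at 6 h (adjusted p = 0.021). At 24 h Kprp, a proline-rich keratinocyte gene that lies among the Lce genes, measured 10.87, 10.95 and 10.80, against 11.69, 11.39 and 11.44 in untreated skin, a difference of -0.63 (adjusted p = 0.00483). Krt1, a keratin of the suprabasal layers, differed by -0.44 at 24 h (adjusted p = 0.0436), while its partner Krt10 differed by -0.16 (adjusted p = 0.412).

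Of 19 measured genes of the epidermal lipid barrier, 1 was called lower at 1.5 h, 1 at 6 h and 2 at 24 h. The list had 0 called higher, and its medians were 0.08, -0.31 and -0.40. Over all genes, 1.59%, 2.71% and 0.808% were called lower and 0.612%, 3.38% and 2.55% higher at these times. Elovl4, which makes very long fatty acids, differed by -0.60 at 1.5 h (adjusted p = 0.0288) and -0.52 at 24 h (adjusted p = 0.0375). Alox12b, a lipoxygenase needed to bind ceramides to the envelope, differed by -0.67 at 6 h (adjusted p = 0.024) and -0.63 at 24 h (adjusted p = 0.0496). Of the 4 stress keratins 0 were called in limma at any time, and 0 had an unadjusted p under 0.05. At that unadjusted level 9.31%, 14% and 8.82% of all genes were lower and 8.2%, 9.16% and 8.27% higher at 1.5 h, 6 h and 24 h. Krt6a differed by -0.25, -0.12 and -0.25 and Krt16 by 0.11, 0.33 and -0.18 at 1.5 h, 6 h and 24 h (adjusted p from 0.54 to 0.934). At 6 h the array high in Sprr1b, replicate 1, was also the highest for Krt16 (9.34, beside 7.17 and 7.22) and for Krt6b (8.71, beside 4.61 and 5.55). Without it, a setting chosen after seeing the data for these keratins, Krt16 differed by -0.39 and Krt6b by -0.93 at 6 h (adjusted p = 0.494 and 0.293), against 0.33 and 0.28 with it.

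Of 22 measured transcription factors of epidermal differentiation, 2 were called higher at 1.5 h, 1 higher and 2 lower at 6 h, and 2 lower at 24 h. Shares over all genes were 0.612%, 3.38% and 2.55% higher and 1.59%, 2.71% and 0.808% lower at 1.5 h, 6 h and 24 h. Fosl1 and Junb encode AP-1 subunits. Fosl1 measured 7.004, 7.62 and 7.21 at 1.5 h, against 5.90, 6.13 and 6.00 in untreated skin, a difference of 1.27 (adjusted p = 0.00105). Junb differed by 0.58 at 1.5 h (adjusted p = 0.0304) and 0.72 at 6 h (adjusted p = 0.00281). Cebpa and Hes1, a target of Notch, differed by -0.39 and -0.42 at 6 h (adjusted p = 0.0459 and 0.0316), and Tfap2a (AP-2 alpha) and Prdm1 (Blimp-1) by -0.77 and -0.63 at 24 h (adjusted p = 0.00541 and 0.0195). Klf4, a factor needed for the skin barrier, differed by 0.19, -0.13 and -0.21, and none of these passed.

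The 8 markers of basal epidermis gave 0 calls in limma, with 0, 0 and 5 at an unadjusted p under 0.05 at 1.5 h, 6 h and 24 h. Of the 8, 6, 8 and 8 lay below 0 at these times, with medians of -0.07, -0.07 and -0.29. Krt5 and Krt14, the keratins that define basal cells, differed by -0.01, -0.08 and -0.13 and by 0.06, -0.20 and -0.13. The summed level of the 8 markers was 13.62 to 13.78 at 24 h, against 13.85 to 13.92 in untreated skin, and the part of this lower level in the members' differences was not tested. With every array centred on 6 basal markers, the 6 h calls came to 1 (Casp14) and the 24 h calls to 1 (Hrnr). Krt5, with group means of 11.94 to 12.07, and Krt10, with means of 12.46 to 12.62, stood far above the array medians in every group, which matches the label of skin.

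Markers of other skin structures also differed between the groups. For the calls given here, shares over all genes were 1.59%, 2.71% and 0.808% lower at 1.5 h, 6 h and 24 h. Those called higher were 0.612%, 3.38% and 2.55% of all genes. At an unadjusted p under 0.05, 9.31%, 14% and 8.82% of all genes were lower and 8.2%, 9.16% and 8.27% higher. A difference below 0 was found for 45.6%, 56.2% and 49.9% of all genes. The summed level of 8 glandular epithelium genes was 8.785 to 8.892 in untreated skin, 10.43 to 11.69 at 1.5 h, 8.888 to 11.38 at 6 h and 10.35 to 10.84 at 24 h, with 4, 0 and 2 of the 8 called higher at the 3 times. That of 7 sebaceous gland genes was 12.91 to 13.1 in untreated skin, 11.54 to 12.37 at 1.5 h, 12.58 to 12.82 at 6 h and 11.89 to 12.48 at 24 h, with 3, 1 and 1 called lower. Of 12 hair follicle genes 0, 2 and 0 were called lower (Krt25 and Krt71 at 6 h), and all 12 lay below 0 at each time. In untreated skin Krt25 measured 6.51, 10.74 and 7.03 and Krt71 6.16, 10.49 and 7.20. Untreated replicate 2 thus stood far above the other untreated arrays. Of 8 neutrophil genes 3, 2 and 2 were called higher. At each time 7 of the 8 lay above 0, and S100a8 lay below. The 6 lymph node and B cell genes summed to 11.6 in 1.5 h replicate 1 and 11.12 in 6 h replicate 1, against 6.598 to 7.065 in the other 10 arrays, and without those 2 arrays 6 members were called at 24 h and 0 at 1.5 h. The 13 skeletal muscle genes summed to 15.21 to 15.35 in untreated skin, 15.35 to 15.8 at 1.5 h, 15.04 to 15.39 at 6 h and 15.01 to 15.71 at 24 h, with 0 called in limma and 4, 0 and 0 at an unadjusted p under 0.05. Of 6 dermal fibroblast genes 0 were called (2, 0 and 0 unadjusted), and of 5 adipocyte genes 0 (0, 1 and 0 unadjusted). No marker could be scored as absent, and the part of these contents in the members' differences was not tested.

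**Figure D5:**
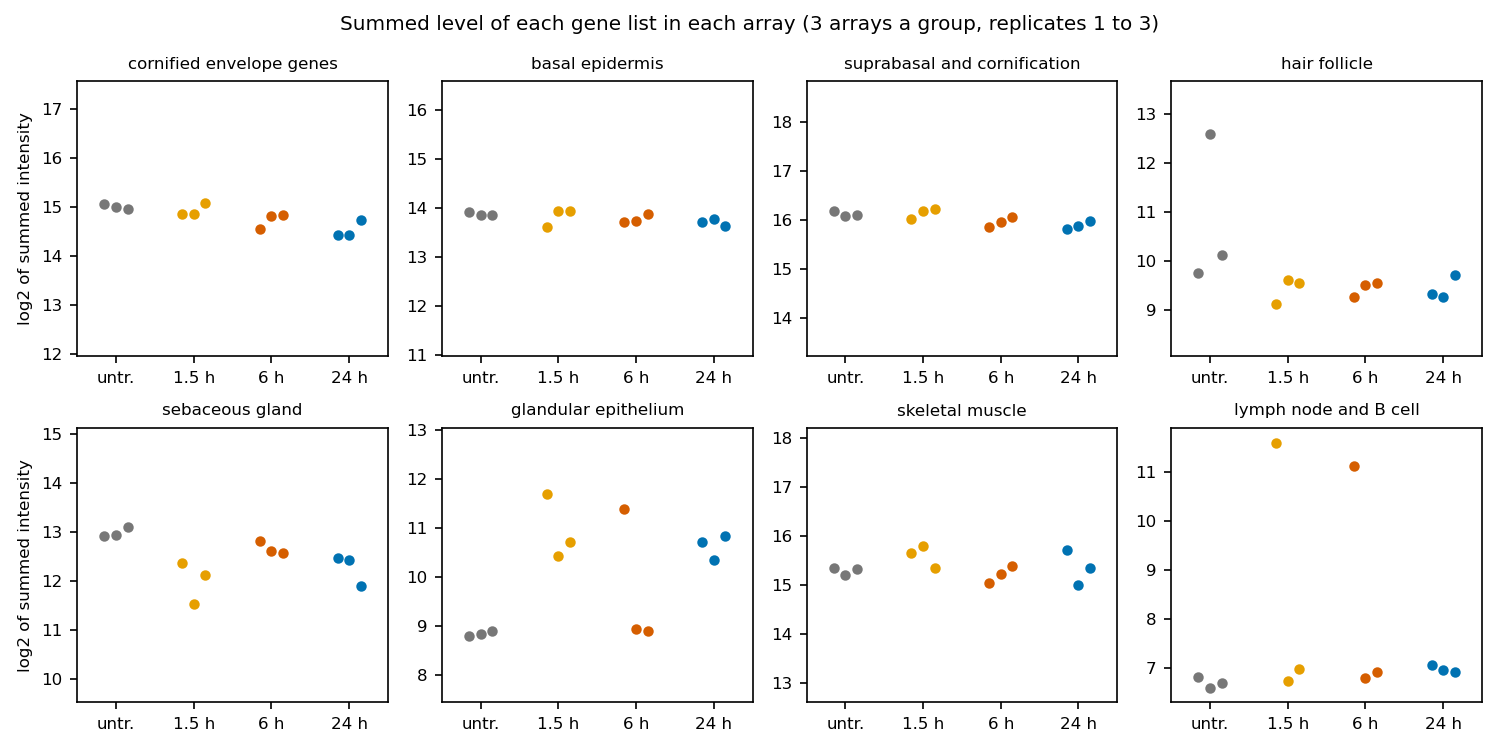
Log2 of the summed intensity of each gene list in each array, for untreated skin and 1.5 h, 6 h and 24 h after RNAdjuvant, with replicates 1 to 3 from left to right; all axes span the same number of log2 units. The cornified envelope genes summed to 14.44 to 14.75 at 24 h, against 14.96 to 15.07 in untreated skin, while glandular epithelium genes were higher at 24 h and 2 arrays stood out for lymph node genes.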

How the data were processed

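Per the submitters' processing notes, the authors made the deposited log2 intensities with RMA in Affymetrix Expression Console 1.1; no source used here names the genome build behind the probe sets. The table held 35556 probe sets on 12 arrays, of which 21789 had 1 gene symbol, 1621 had several and 12146 were not listed in the platform annotation. A gene with several probe sets was represented by the one with the highest mean, which left 19938 genes. One model held all 4 groups (lmFit, eBayes, limma 3.58.1, R 4.3.3) and left 8 residual and 5.24 prior degrees of freedom. P-values are two-sided, with Benjamini-Hochberg adjustment in each comparison across the 19938 genes. The number of arrays (3 a group) limits the precision. The labels call the arrays biological replicates without naming the animals, so p-values measure the spread between these samples. In a simulation of the 6 h comparison that shifted 200 of the 19938 genes, calls were made for 30.2% of those shifted by 0.5 log2 units, 93.6% by 1 and 100% by 2. It drew independent normal noise from the fitted spread, without the content differences that real arrays share. In the data 541 genes were called lower and 674 higher at 6 h, more than were shifted. These percentages therefore do not measure the power of the real comparison.

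The members, the gene lists and the tests were chosen with earlier results of these data known. Every member is named. Values of every array are given for Lor, Ivl and Tgm1 and for most members called in any comparison. Left out are the 1.5 h values of Lce1e and Lce1f, the untreated values of Lce1k, and the untreated and 24 h values of Lce1l. Further members were described after their values were seen. Arrays of 1 group correlated at r = 0.988 to 0.993 over genes. Replicate numbers as a block, leaving out libraries, other variance models, filters, scalings and thresholds were tried as alternatives. Promoters came from RefSeq, matched by symbol.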

Additional observations from a re-analysis of the deposited data

Results flagged for a closer look

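The following differences between 2 times after RNAdjuvant passed the limma test of the difference itself, which means that these members' differences from untreated skin were unequal at the 2 times; the comparisons share their untreated arrays. All 14 were lower at the later time, and no explanation was tested. Between 6 h and 1.5 h the log2 differences were -0.56 for Casp14 (adjusted p = 0.0434), -0.59 for Lce1e (adjusted p = 0.0409), -0.67 for Lce1f (adjusted p = 0.0272), -0.53 for Lce1k, -0.47 for Lce1l, -0.75 for Lce6a and -0.67 for Tgm3. Between 24 h and 6 h they were -0.58 for Hrnr and -0.63 for Sprr1a. Between 24 h and 1.5 h they were -0.62 for Hrnr, -0.73 for Lce1k, -0.81 for Lce6a, -1.45 for Sprr4 and -0.76 for Tgm3. Groups of 3 were not searched systematically for single outlying arrays. Untreated replicate 2 and 6 h replicate 1 were singled out above after their values were seen.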

How the results depend on the processing

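The 23 calls of single members kept their direction in all 667 refits and were called in 431 of them. Hrnr at 24 h was called in every one of 29 alternatives, with adjusted p up to 0.0111. Leaving out 1 library at a time, the members called ranged from 0 to 2 at 1.5 h, 1 to 6 at 6 h, 1 to 6 at 24 h, 2 to 7 between 6 h and 1.5 h, 0 to 4 between 24 h and 6 h, 2 to 7 between 24 h and 1.5 h, and 5 to 14 by the F test. Counts that moved by over 1.5 times are given next, and the cause was not tested for any of them. The shares of all genes called under these settings were not computed. A moved count therefore cannot be told apart from a change in calls over all genes. With the replicate block 2 members were called at 1.5 h and 6 at 24 h. Arrays of the same number deviated together at r = -0.215 to 0.334 over 18 pairs (4 over 0.1). The highest was that of 1.5 h and 6 h replicate 1, the 2 libraries high in Glycam1. With 3 arrays a group, these values cannot settle whether the numbers pair the samples. Without the 2 libraries high in Glycam1 there were 0 at 1.5 h, 6 at 24 h, 3 between 6 h and 1.5 h and 4 between 24 h and 6 h. Without the 4 libraries high in Myl2 (1.5 h replicates 1 and 2, 24 h replicates 1 and 3), 1 array is left at 1.5 h and 1 at 24 h, each assumed to vary like the other groups; there were 0 at 1.5 h, 1 at 24 h, 3 between 6 h and 1.5 h, 0 between 24 h and 6 h, 0 between 24 h and 1.5 h and 4 by the F test. Fits of only the groups compared gave 4 between 6 h and 1.5 h and 0 between 24 h and 6 h. An intensity trend with a robust prior gave 2 at 1.5 h and 7 at 24 h, as did a filter at 6 in 3 arrays. No moderation gave 0 at 1.5 h, 1 at 6 h, 2 between 6 h and 1.5 h, 1 between 24 h and 6 h, 2 between 24 h and 1.5 h and 2 by the F test. Array weights gave 2 at 1.5 h, 15 at 24 h and 18 by the F test. A floor of 5 gave 0 at 1.5 h, 2 at 6 h, 2 between 6 h and 1.5 h, 1 between 24 h and 6 h and 5 by the F test. Median centring gave 13 between 6 h and 1.5 h and 1 between 24 h and 6 h; quantile normalization gave 3 at 6 h; cyclic loess gave 2 at 1.5 h, 1 at 6 h and 3 between 6 h and 1.5 h. Centring on basal markers gave 0 at 1.5 h, 1 at 6 h, 1 at 24 h, 0 between 6 h and 1.5 h, 0 between 24 h and 6 h, 1 between 24 h and 1.5 h and 1 by the F test, while the median of all genes moved to 0.27 at 24 h; median centring moved it to 0.12 at 1.5 h. Adjusting over all probe sets gave 0 at 1.5 h, 2 at 6 h, 1 at 24 h, 3 between 6 h and 1.5 h, 1 between 24 h and 6 h and 4 by the F test. At an adjusted p under 0.01 there were 0 at 1.5 h, 0 at 6 h, 1 at 24 h, 1 between 6 h and 1.5 h, 0 between 24 h and 6 h and 2 by the F test. At 2-fold and over there were 0 at 1.5 h, 0 at 6 h, 1 at 24 h, 0 between 6 h and 1.5 h, 0 between 24 h and 6 h, 1 between 24 h and 1.5 h and 1 by the F test. In 9 of 29 alternatives 1 member was called higher at 1.5 h. Without 6 h replicate 1 that member was Tgm3 (adjusted p = 0.0483). The number of arrays and dim probe sets limit what can be told: 15 members have a mean under 6, and the table gives no detection calls or background level.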

Other observations

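Between S100a1 and S100a11, 22 measured genes are not among the 42 described above. Of them, 1 was called higher at 1.5 h (S100a9), 0 at 6 h in either direction, and 1 lower at 24 h (Kprp), with medians of 0.02, -0.15 and -0.13. Over all genes 0.612% were called higher at 1.5 h and 0.808% lower at 24 h. S100a9, a calcium-binding protein of neutrophils and stressed keratinocytes, measured 10.09, 8.96 and 8.73 at 1.5 h, against 7.33, 6.78 and 6.67 in untreated skin, a difference of 2.33 (adjusted p = 0.0166). S100a8 went the other way, with differences of -0.16, -0.42 and -0.67 at 1.5 h, 6 h and 24 h (adjusted p in limma = 0.848, 0.455 and 0.323). Tchh, the gene of trichohyalin in the inner root sheath of the hair, differed by -2.12, -1.99 and -1.90 and was not called; it measured 9.79 in untreated replicate 2, the array that was also high in Crnn, and 6.14 and 7.11 in the other untreated arrays.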
